A study of Mus musculus with 4 samples.

Results

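Chemokines are small secreted proteins that direct the movement of leukocytes through receptors on the responding cell, and memory CD8 T cells are known for releasing several of them within hours of stimulation. The genes described here are 7 mouse chemokine genes, Ccl1, Ccl3, Ccl4, Ccl5, Ccl9, Xcl1 and Cxcl10, taken as every probe set that the array's platform annotation assigns to one of these symbols. They had 8 probe sets of 45101 on the array, 2 of them for Ccl9, and they were 7 of 18193 genes tested. None of the 8 probe sets was shared with another gene symbol.

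The arrays measured RNA of sorted splenic CD8 T cells, taken from wild-type mice of the B6 strain with no treatment named. The Ly49+ cells, sorted as CD44+CD122+Ly49+ and named CD8 Treg in the labels, had 2 arrays. The Ly49- cells, sorted as CD44+CD122+Ly49- and named conventional memory cells, had 2 arrays. Both groups thus carried the CD44 and CD122 markers of memory cells and differed in surface Ly49, a family of MHC class I receptors encoded by the Klra genes. The labels do not give the animals' age or say whether replicates came from separate animals or pools, so the p-values rest on a spread among arrays that may be technical alone.

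The CC chemokines Ccl3, Ccl4 and Ccl5 (also called MIP-1alpha, MIP-1beta and RANTES) draw T cells, monocytes and NK cells. Xcl1, or lymphotactin, is a C-family chemokine of activated CD8 T and NK cells that draws cross-presenting dendritic cells through Xcr1. Cxcl10 is a CXC chemokine induced by interferons that acts through Cxcr3. Transcription of Ccl3, Ccl4 and Xcl1 is known to be switched on quickly by antigen receptor signalling, whereas memory CD8 T cells keep Ccl5 mRNA at rest.

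The deposited values were linear intensities with array medians between 188.5 and 190.4 on a nearly shared distribution. Precision is limited by the number of arrays. Probe sets for Bacillus genes read at most 70.3, which is taken as the level of background. The older probe sets for the hybridisation spikes had a median of 1416 on Ly49- replicate 1, against 5181 to 5863 on the other arrays, while the newer probe sets for the same spikes lay between 6999.8 and 7223 on all 4. The ratio of 3′ to 5′ signal, a sign of RNA quality, was lower in Ly49+ samples with no overlap, at 1.26 and 1.29 on the Ly49+ arrays against 1.37 and 1.34 on the Ly49- arrays for actin, and at 1.71 and 1.70 against 1.74 and 1.75 for Gapdh. The sort was visible in the Ly49 receptor gene Klra8, which read 3957 and 3401 on the Ly49+ arrays, against 543 and 562 on the Ly49- arrays. None of the 10 measured marker genes of CD8 T cells passed limma's test (2 at an unadjusted p under 0.05), and their summed intensity was 147593 and 148213 on the Ly49+ arrays and 148755 and 147400 on the Ly49- arrays.

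Of the 7 chemokine genes, 3 rose in Ly49+ cells (Ccl3, Xcl1 and Ccl5), none fell and 4 did not pass. Over all 18193 genes, 3.97% were called, 1.93% higher and 2.04% lower, and among the 12697 genes with a mean above background 2.67% were called higher. The median log2 fold change of the 7 genes was 0.43, against -0.04 for all genes. Fold changes are on the scale of log2(intensity + 16), calls are a limma p adjusted by Benjamini-Hochberg over all genes under 0.05, and each gene is read by its brightest probe set. The 3′ to 5′ ratios of actin and Gapdh separated the groups as well, and their part in these differences was not tested. In bulk RNA of this kind, a different share of producing cells and a different amount of RNA per cell cannot be told apart.

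**Figure D1:**
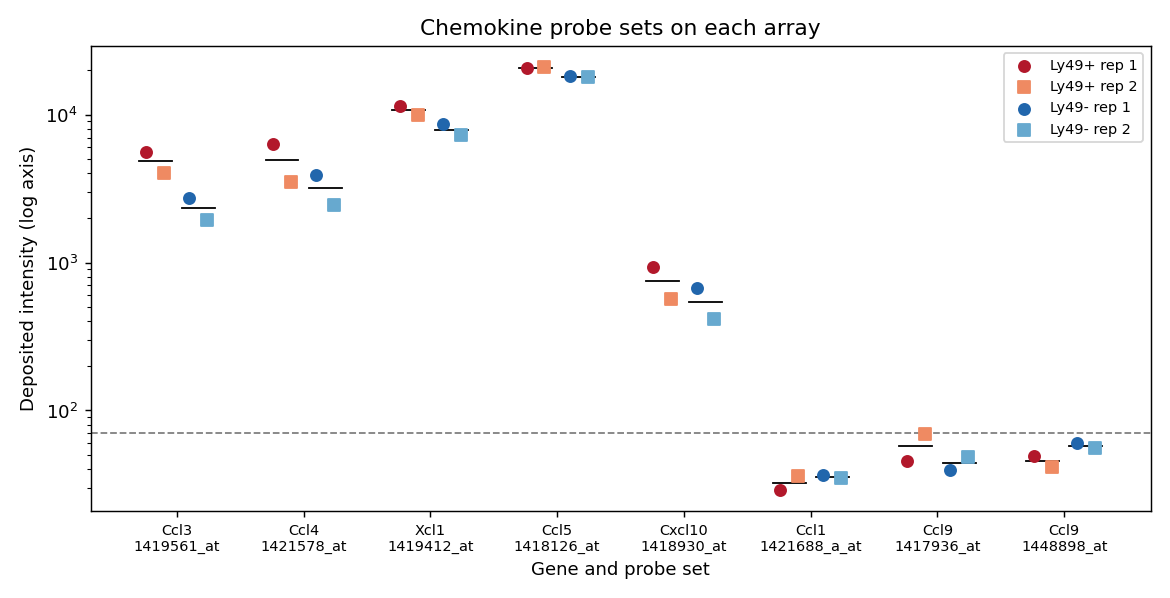
Deposited intensity (log axis) of the 8 chemokine probe sets on each of the 4 arrays. Points are single arrays, short lines are group means, and the dashed line is the highest Bacillus control (70.3). For Ccl3, Xcl1 and Ccl5 both Ly49+ arrays lie above both Ly49- arrays, an order that 13.2% of all genes had. All points of Ccl1 and Ccl9 lie below the dashed line.

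Ccl3 had the largest difference of the 7. Its intensity was 5605 and 4038 on the Ly49+ arrays, against 2739 and 1948 on the Ly49- arrays, or 12.45 and 11.98 against 11.42 and 10.93 as log2 intensity. Both Ly49+ arrays lay above both Ly49- arrays, as for 13.2% of all genes. The ratio of a Ly49+ to a Ly49- array ran from 1.47 to 2.88. The means were 4822 ± 1108 in Ly49+ cells and 2344 ± 559.9 in Ly49- cells (SD, n = 2 each), which is 2.06-fold higher in Ly49+ cells. The log2 fold change was 1.04 ± 0.17 (SE), with a 95% interval of 0.65 to 1.42 and a limma adjusted p of 0.012.

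Ccl4, the gene next to Ccl3 on chromosome 11 in the RefSeq gene order (GRCm38.p6), did not pass. It read 6289.7 and 3503 on the Ly49+ arrays and 3923 and 2439 on the Ly49- arrays. The groups overlapped, since Ly49+ replicate 2 lay below Ly49- replicate 1. The log2 fold change was 0.60 ± 0.26 (SE), with a 95% interval of -0.003 to 1.2 and a limma adjusted p of 0.279. In this fit, with group as the sole term, the interval holds both no difference and one as large as that of Ccl3. With a term for the replicate number added, Ccl4 passed (limma adjusted p = 2.44e-06), but the labels do not tie that number to a shared animal or day. Whether the fold changes of Ccl3 and Ccl4 differ was not tested.

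Ccl5 had a small difference with little spread. Its intensity was 20561 and 20952 on the Ly49+ arrays, against 18195 and 17914 on the Ly49- arrays. Both Ly49+ values lay above both Ly49- values (13.2% of all genes had this order). The ratio of a Ly49+ to a Ly49- array ran only from 1.13 to 1.17. The means were 20756 ± 277 in Ly49+ cells and 18054.5 ± 199 in Ly49- cells (SD, n = 2 each), a 1.15-fold difference. The log2 fold change was 0.20 ± 0.03 (SE, 95% interval 0.13 to 0.27, limma adjusted p = 0.0112). Klf13, a factor known to drive late Ccl5 transcription in T cells, differed by -0.06 on the log2 scale (limma adjusted p = 0.504), at 13456.5 and 14084 on the Ly49+ arrays and 14088 and 14534 on the Ly49- arrays.

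Xcl1 read 11478 and 9942 on the Ly49+ arrays, against 8578 and 7278 on the Ly49- arrays. All Ly49+ values lay above all Ly49- values, as for 13.2% of all genes. The means were 10709.8 ± 1086 in Ly49+ cells and 7928 ± 919 in Ly49- cells (SD, n = 2 each), which is 1.35-fold higher. The log2 fold change was 0.43 ± 0.08 (SE, 95% interval 0.24 to 0.63, limma adjusted p = 0.0249).

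Cxcl10, the interferon-inducible member, did not pass. It read 929 and 563 on the Ly49+ arrays and 671 and 418 on the Ly49- arrays. As with Ccl4, Ly49+ replicate 2 lay below Ly49- replicate 1. The log2 fold change was 0.44 ± 0.25 (SE, 95% interval -0.13 to 1.00, limma adjusted p = 0.401). With the same added term for the replicate number, Cxcl10 passed (limma adjusted p = 0.00559).

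Ccl1 and Ccl9 were not above background on any array, so the label of chemokines made by memory CD8 cells was not borne out for them here. Ccl1, a ligand of Ccr8, read 29.0 and 36.0 on the Ly49+ arrays and 36.5 and 34.8 on the Ly49- arrays. Ccl9, a CC chemokine of mouse myeloid cells, had 2 probe sets, and no fold is given for either. The brighter one read 49.6 and 41.4 on the Ly49+ arrays and 60.0 and 55.8 on the Ly49- arrays, with both Ly49+ values below both Ly49- values (35.2% of all genes had this order). The other read 45.5 and 69.3 on the Ly49+ arrays and 39.7 and 48.6 on the Ly49- arrays, where the groups overlapped. Below background, neither order is read as a direction. Neither gene passed (limma adjusted p = 0.663 for Ccl1 and 0.211 for Ccl9).

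**Figure D2:**
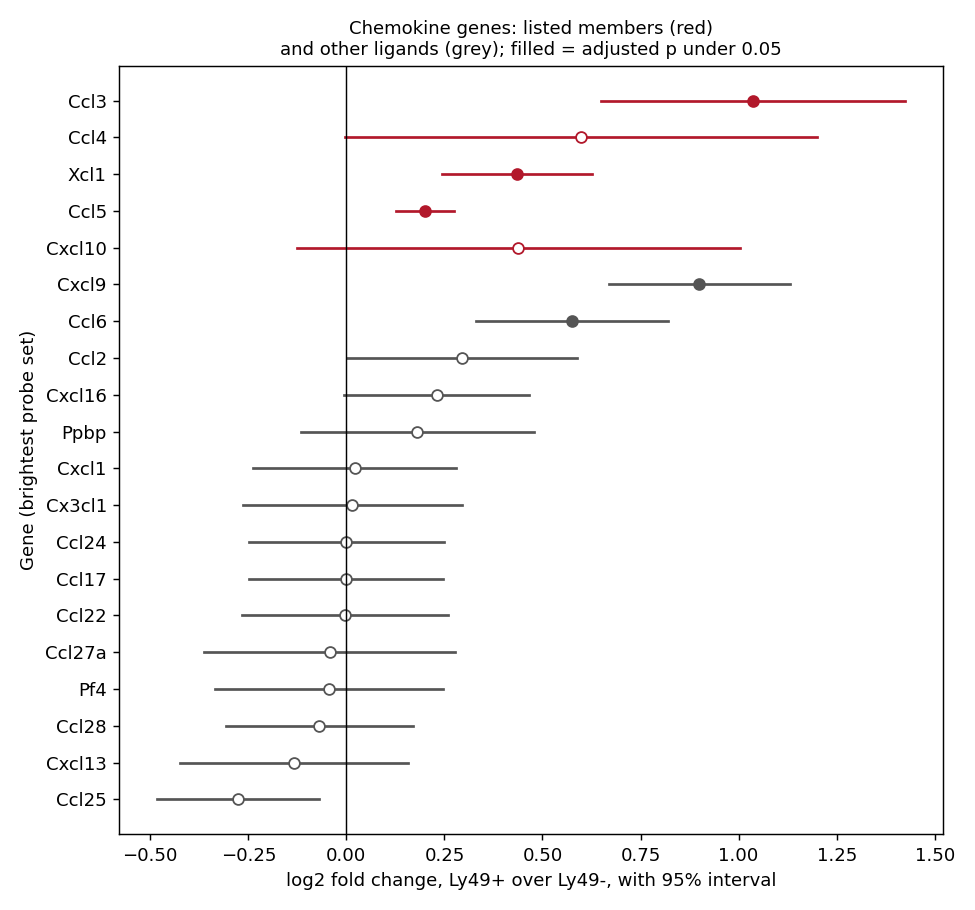
Log2 fold change, Ly49+ over Ly49-, with its 95% interval for the 5 chemokine genes described above that were above background (red) and the other chemokine ligands with a group mean above background (grey). Filled points passed the test (Ccl3, Xcl1, Ccl5, Cxcl9 and Ccl6), and the intervals of Ccl4 and Cxcl10 reach 0.

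The calls depended on single arrays and on how the spread was estimated. Without Ly49+ replicate 1, none of the 7 genes passed, with a limma adjusted p of 0.0623 for Ccl3, 0.163 for Xcl1 and 0.0839 for Ccl5. Without Ly49- replicate 1 none passed (0.0574, 0.0673 and 0.0675 in the same order), nor without Ly49- replicate 2 (0.165, 0.225 and 0.094). Without Ly49+ replicate 2, Ccl3 (0.012) and Xcl1 (0.0327) passed and Ccl5 (0.137) did not. In these 3 fits with no call, between 3 and 5 of the 7 genes had an unadjusted p under 0.05. The log2 fold change stayed above 0 for Ccl3 (0.79 to 1.28), Xcl1 (0.32 to 0.55) and Ccl5 (0.19 to 0.21) in all 4 of these fits, whereas Ccl4 ran from 0.18 to 1.02 and Cxcl10 from 0.08 to 0.79.

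In the fit over all 45037 probe sets, of which 1.19% were called in either direction and 0.766% higher, Ccl5 alone of the 8 passed (limma adjusted p = 0.0367), while Ccl3 had 0.0619 and Xcl1 0.0953. Without a trend of the spread on level none of the 7 genes passed (0.101 for Ccl3, 0.155 for Xcl1 and 0.186 for Ccl5, with 4 at an unadjusted p under 0.05). A robust estimate of the spread ended the calls of Ccl3 (0.306) and Xcl1 (0.146) but not of Ccl5 (0.00428), and averaging the probe sets of every gene put Xcl1 at 0.0522.

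**Figure D3:**
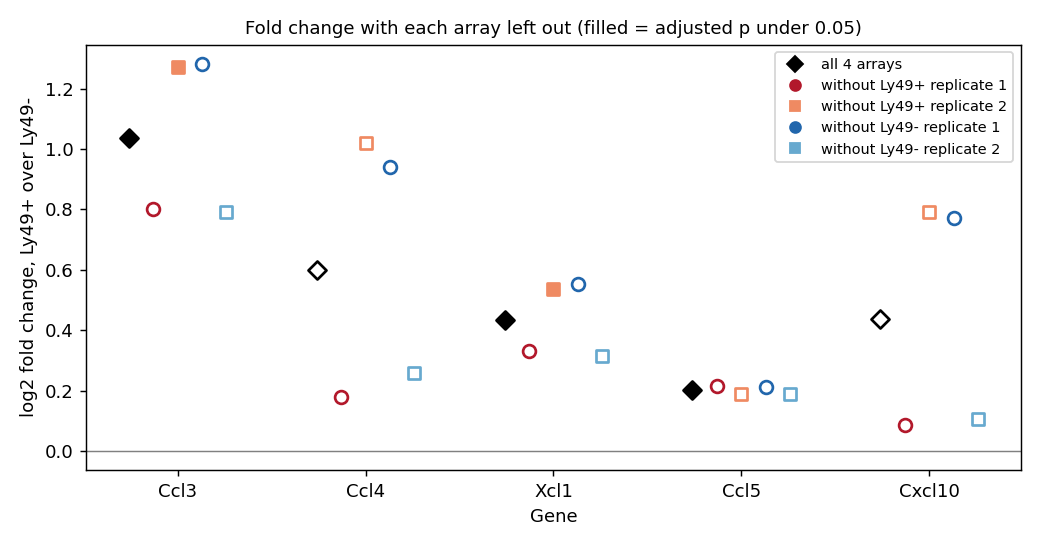
Log2 fold change, Ly49+ over Ly49-, of 5 chemokine genes with all 4 arrays (black diamonds) and with each array left out in turn. Filled symbols had a limma adjusted p under 0.05. Ccl4 and Cxcl10 fall to 0.18 and 0.08 without Ly49+ replicate 1, and Ccl5 stays between 0.19 and 0.21.

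For Ccl4 and Cxcl10, the arrays within a group differed by more than the groups did on average. Between the Ly49+ arrays, Ccl4 differed by 0.84, Cxcl10 by 0.72, Ccl3 by 0.47 and Xcl1 by 0.21 on the log2 scale, with replicate 1 the higher. Between the Ly49- arrays, the differences were 0.69 for Ccl4, 0.68 for Cxcl10, 0.49 for Ccl3 and 0.24 for Xcl1, again with replicate 1 the higher. Between arrays of the same replicate number, Ly49+ minus Ly49- was 0.68 and 0.52 for Ccl4 and 0.47 and 0.43 for Cxcl10. The labels do not tie these numbers to a shared animal or day. Ccl5 differed by -0.03 between the Ly49+ and 0.02 between the Ly49- arrays, replicate 1 minus replicate 2. Among the 12697 genes above background, the median absolute difference was 0.07 between the Ly49+ arrays and 0.08 between the Ly49- arrays. The difference of Ccl4 was larger than that of 99.7% and 99.5% of these genes, and that of Ccl5 larger than 23.2% and 15.5%. Ccl3, which was called, exceeded 98.36% and 98.65% of them. The shares were 87.15% and 89.39% for Xcl1, and 99.52% and 99.47% for Cxcl10.

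Most listed genes induced by activation differed between the arrays of a group in the same direction as Ccl3, Ccl4, Xcl1 and Cxcl10. For 17 of the 19 listed activation-induced genes, Ly49+ replicate 1 lay above Ly49+ replicate 2 and Ly49- replicate 1 above Ly49- replicate 2, as for 4794 of all 18193 genes. Egr1, an early growth response factor, read 15121 and 7109 on the Ly49+ arrays and 14129 and 7003 on the Ly49- arrays. Nr4a1, a nuclear receptor induced by T-cell receptor signals, read 5683 and 1887 against 4769.6 and 1559. Dusp2, a phosphatase of MAP kinases, read 8116 and 4658 against 6958 and 4919. None of the 19 genes passed between Ly49+ and Ly49- cells (2 at an unadjusted p under 0.05, limma), and their median log2 fold change was 0.12. The part of this array difference in the chemokine values was not tested.

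**Figure D4:**
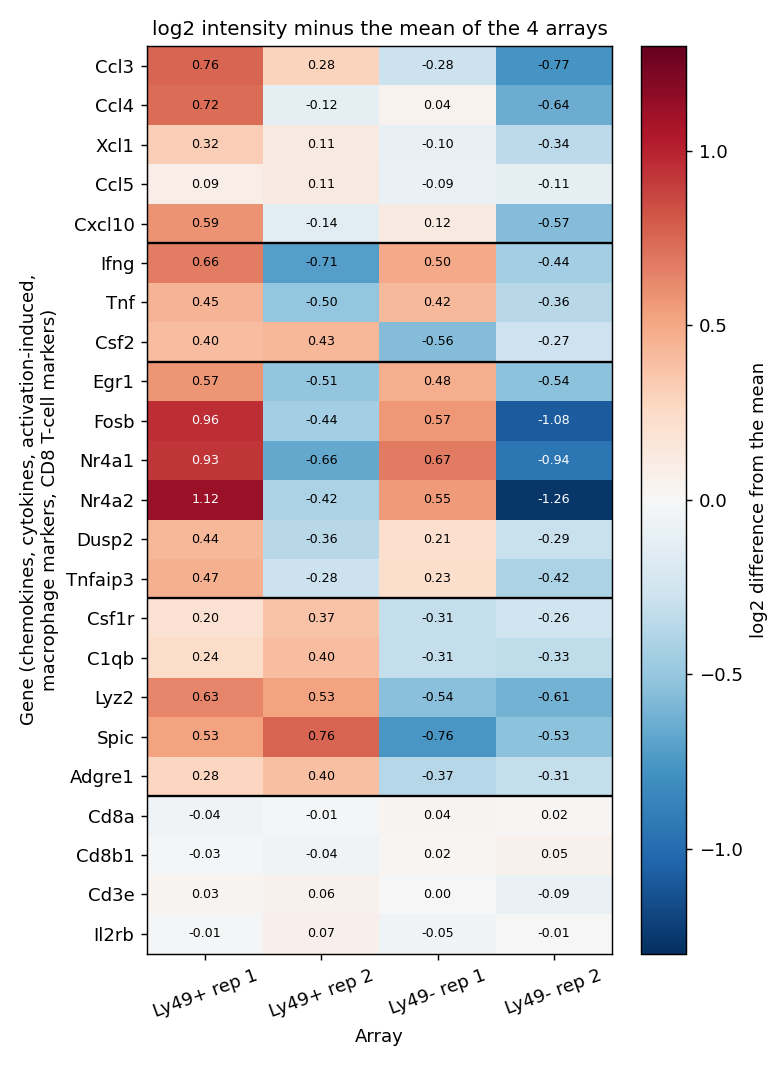
Log2 intensity of single genes on each array minus the mean of the 4 arrays, for 5 chemokines and for cytokines, activation-induced genes, macrophage markers and CD8 T-cell markers chosen after their values were seen. Ccl3, Ccl4, Xcl1 and Cxcl10 have their highest value on Ly49+ replicate 1 and their lowest on Ly49- replicate 2. So do Egr1, Fosb, Nr4a1, Nr4a2 and Tnfaip3. Both Ly49+ arrays lie above both Ly49- arrays for Ccl3, Xcl1, Ccl5, Csf2 and the macrophage markers, as for 13.2% of all genes. Cd8a stays near 0.

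The promoters of Ccl3, Xcl1 and Cxcl10 are shown because these genes were highest on the same array. Ccl4 was also highest on that array, but Ccl4 and Ccl5 were not matched in the promoter table. They are the 250 bases before the start site (RefSeq, GRCm38.p6, minus strand, written 5′ to 3′ on the gene's strand), and 5 of the 7 genes were matched in the promoter table. Capitals mark matches on either strand to GGGNNNNNCC (NF-kB), TGANTCA (AP-1), GAAANNGAAA (the interferon-stimulated response element) and GGAAA (the NFAT core), which may overlap. These motifs were chosen with the sequences in view.
Ccl3, chr11:83649379-83649628: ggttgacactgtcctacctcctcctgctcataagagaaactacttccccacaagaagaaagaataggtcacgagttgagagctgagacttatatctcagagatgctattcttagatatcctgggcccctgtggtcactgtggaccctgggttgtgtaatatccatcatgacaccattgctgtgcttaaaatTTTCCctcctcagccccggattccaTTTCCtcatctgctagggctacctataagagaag
Xcl1, chr1:164935523-164935772: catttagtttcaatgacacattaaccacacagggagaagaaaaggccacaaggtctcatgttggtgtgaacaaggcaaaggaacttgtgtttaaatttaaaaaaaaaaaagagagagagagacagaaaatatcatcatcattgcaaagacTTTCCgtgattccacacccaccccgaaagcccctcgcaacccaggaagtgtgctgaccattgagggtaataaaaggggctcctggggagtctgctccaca
Cxcl10, chr5:92348890-92349139: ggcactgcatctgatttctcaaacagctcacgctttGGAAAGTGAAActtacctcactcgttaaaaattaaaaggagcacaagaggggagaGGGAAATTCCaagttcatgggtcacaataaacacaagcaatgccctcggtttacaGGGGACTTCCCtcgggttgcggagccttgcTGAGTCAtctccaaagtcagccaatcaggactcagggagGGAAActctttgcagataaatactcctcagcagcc

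Ccl3 held 2 matches to the NFAT core, both as TTTCC, and Xcl1 held 1. Cxcl10 held 3 matches to the NF-kB pattern, 2 of them overlapping, 1 AP-1 match (TGAGTCA), 3 NFAT cores and 1 interferon element (GAAAGTGAAA) lying 213 to 204 bases before the start. Ccl1 and Ccl9, below background on every array and not printed, held matches as well. Ccl1 held 2 overlapping NF-kB matches and 3 NFAT cores. Ccl9 held 1 NF-kB match, 1 AP-1 match and 2 NFAT cores. Such matches were therefore not limited to the genes that shared the array pattern. Of all 32851 promoter windows of this length, 45.8% held the NF-kB pattern, 6.75% the AP-1, 2.98% the interferon element and 55.6% the NFAT core. A match is a description of the letters and does not show a binding site.

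Among 28 other chemokine ligand genes measured of 33 listed, 2 rose, none fell and 26 did not pass, with a median log2 fold change of -0.003. Of these, 13 had both group means at or below background. Cxcl9, an interferon-gamma-induced ligand of Cxcr3 that lies close to Cxcl10 on chromosome 5, read 508 and 553 on the Ly49+ arrays, against 283 and 270.2 on the Ly49- arrays. Unlike Cxcl10, its groups did not overlap (log2 fold change 0.90 ± 0.10 SE, limma adjusted p = 0.00246), and it had 0.0585 without Ly49- replicate 2. Ccl6, a myeloid CC chemokine whose gene lies between Ccl9 and Ccl3, read 583 and 692 against 409.8 and 433 (log2 fold change 0.58 ± 0.11 SE, limma adjusted p = 0.0218). It did not pass without Ly49+ replicate 2 (0.169), Ly49- replicate 1 (0.142) or Ly49- replicate 2 (0.152), nor without a trend of the spread (0.0597).

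The other ligands above background did not pass. Ccl25, a chemokine of thymus and gut, read 569 and 609.7 on the Ly49+ arrays and 687 and 748 on the Ly49- arrays (log2 fold change -0.28, limma adjusted p = 0.149). Cxcl16, made by antigen-presenting cells, differed by 0.23 (0.288) and the monocyte chemokine Ccl2 by 0.30 (0.274). Ppbp, Pf4, Cxcl1, Cxcl13, Ccl17, Ccl22, Ccl24, Ccl27a, Ccl28 and Cx3cl1 had log2 fold changes between -0.13 and 0.18.

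Markers of macrophages and monocytes were higher in Ly49+ samples. Of 15 measured, 14 rose and none fell, and all 15 had both Ly49+ arrays above both Ly49- arrays (13.2% of all genes had this order). Their summed intensity was 28238.5 and 31631 on the Ly49+ arrays, against 19178 and 19486 on the Ly49- arrays, and none was below background in both groups. Csf1r, the receptor of macrophage colony-stimulating factor, read 3758 and 4242 against 2635 and 2746, and Lyz2, which encodes lysozyme, 1129 and 1051 against 502 and 477. Macrophages are also known to make Ccl3, Ccl4, Ccl6, Cxcl9 and Cxcl10. The summed macrophage intensity was higher on Ly49+ replicate 2 than on Ly49+ replicate 1, as were Ccl5, Ccl6 and Cxcl9. Ccl3, Ccl4, Xcl1 and Cxcl10 were higher on Ly49+ replicate 1, as were 2 of the 15 markers (Lyz2 and Cd68). Of 9 dendritic-cell markers, 3 rose. Of 9 NK-cell markers, 5 rose, which were Klra8, Klre1, Fcer1g, Tyrobp and Itga2. Klra8 encodes a Ly49 receptor, and the cells were sorted on Ly49, so its rise cannot show whether NK cells were present. The ratio of the group means was 4.65 for Klre1, 2.34 for Fcer1g, 1.62 for Itga2 and 1.53 for Tyrobp. The other 4 NK-cell markers did not pass. Gzma, Eomes and Prf1 were above background, with log2 fold changes of -0.95, 0.14 and -0.08. Ncr1, picked after its values were seen, was below background at 34.9 and 44.8 against 35.2 and 44.6. Whether NK cells were present was not tested. Of 9 B-cell markers, 1 rose and 1 fell, of 8 neutrophil markers 2 fell, and of 7 platelet markers 1 fell. The part of these cells in the chemokine results was not tested.

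Of 9 measured genes for receptors and scavengers of the chemokines, 2 rose, none fell and 7 did not pass. Xcr1, the receptor of Xcl1 and a marker of cross-presenting dendritic cells, read 203 and 228 on the Ly49+ arrays, against 108 and 99.5 on the Ly49- arrays (log2 fold change 0.95 ± 0.12 SE, limma adjusted p = 0.00337). Ccr3, a receptor of Ccl5, read 369.6 and 400.2 against 193 and 182 (0.98 ± 0.11 SE, limma adjusted p = 0.00223). Neither group overlapped the other for these genes. Xcr1 missed the threshold without Ly49- replicate 1 (0.057) or 2 (0.0728), and Ccr3 without Ly49- replicate 2 (0.0576). Cxcr3, the receptor of Cxcl9 and Cxcl10, read 15942 and 16719.5 against 16384 and 16962 (log2 fold change -0.03, 95% interval -0.12 to 0.06, limma adjusted p = 0.747). Gpr75, an orphan receptor, differed by 0.30 (0.255), Ccrl2, which binds chemerin, by 0.34 (0.446), and the scavenger receptors Ackr2 by -0.27 (0.21) and Ackr1 by -0.04 (0.925). Ccr1 and Ccr8 were below background in both groups.

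Of 10 cytokine genes that T cells release beside chemokines, only Csf2 passed. Csf2, which encodes GM-CSF, read 520.3 and 528.5 on the Ly49+ arrays, against 267 and 325 on the Ly49- arrays (log2 fold change 0.80 ± 0.12 SE, limma adjusted p = 0.00722), and its call was lost without Ly49+ replicate 2 (0.0561) or Ly49- replicate 1 (0.0761). Ifng, the gene of interferon-gamma, read 8418 and 3245 against 7506 and 3924. Its arrays spread widely within each group and the groups overlapped (log2 fold change -0.05, 95% interval -0.97 to 0.86, limma adjusted p = 0.968).

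Among 18 measured regulators of chemokine genes, 1 rose and none fell. The transcription factor Maf read 1055 and 1058 on the Ly49+ arrays, against 762 and 648 on the Ly49- arrays (log2 fold change 0.58 ± 0.09 SE, limma adjusted p = 0.0115). It did not pass without Ly49+ replicate 1 (0.0836), Ly49+ replicate 2 (0.0888) or Ly49- replicate 2 (0.101), without a trend (0.051) or with the mean of its probe sets (0.209). Of 15 measured interferon-gamma-induced genes, Cxcl9 rose, Gbp2 and Gbp6 fell and 12 did not pass, with a median of -0.12. Gbp6, a guanylate-binding protein gene of antimicrobial defence, read 4126 and 3998 against 5109 and 5078, and Gbp2 3308 and 3359.6 against 3969 and 4289.8 (limma adjusted p = 0.00652 and 0.0183). Neither Gbp gene passed without Ly49+ replicate 2 (0.0819 for Gbp6 and 0.115 for Gbp2), Ly49- replicate 1 (0.0716 and 0.0615) or Ly49- replicate 2 (0.0752 and 0.14), nor without a trend (0.0701 and 0.11), and Gbp2 had 0.14 without Ly49+ replicate 1. Of 10 granule genes, Gzmk and Gzmb, which encode granule proteases, fell. Gzmk read 168 and 211 on the Ly49+ arrays, against 824 and 1016 on the Ly49- arrays (log2 fold change -2.19 ± 0.14 SE, limma adjusted p = 0.000126). Gzmb read 989 and 1152 against 2066 and 3001 (-1.21 ± 0.15 SE, limma adjusted p = 0.00392), and its call was lost without a trend (0.0501) or with a robust spread (0.104). Serglycin (Srgn), the proteoglycan core that stores granzymes in granules, differed by 0.06 (limma adjusted p = 0.435).

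The genes most like each called chemokine were sought as the 4 smallest Euclidean distances between centred log2 profiles over the 4 arrays, among 12696 other genes with a mean over the 4 arrays above background. Those nearest Ccl3 were Ncald, Nhsl1, Il1b and 1600010M07Rik, at distances of 0.21 to 0.34. Il1b, the gene of an inflammatory cytokine of myeloid cells, read 533 and 457 on the Ly49+ arrays and 227 and 183 on the Ly49- arrays. Ncald, a neuronal calcium sensor gene, read 2508 and 1732 against 998 and 793. Those nearest Xcl1 were Cd9, Gm16364, Trat1 and Mefv, at 0.05 to 0.09. Mefv read 96.7 and 78.5 on the Ly49+ arrays but 64.5 and 58.0 on the Ly49- arrays, below background there, so its distance is not one between measured levels in both groups. Those nearest Ccl5 were Fubp1, Slc39a1, Rasgrp4 and Tpm1, at 0.02 to 0.03. Among the chemokines themselves, Ccl4 and Cxcl10 had a distance of 0.19, against 0.53 between the neighbouring genes Ccl3 and Ccl4. With 4 arrays these distances describe the profiles and are not tested.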

How the data were processed

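The authors deposited 1 table of linear intensity values per probe set for 4 Affymetrix mouse arrays, recognised as linear from the values, which ran from 8.32 to 43959. Array quartiles were nearly equal, so the arrays had been scaled together before deposit, by a method not given in the sources used here, and no scanner files were used. Any compression of bright or dim values by that step carries into the fold changes. Per the labels' protocols, RNA was extracted with an RNeasy kit and biotin-labelled.

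The array's platform annotation gave the gene names: 34945 probe sets had 1 symbol, 932 several, 9160 were not listed and 64 were controls. Each of the 18193 genes was read by its brightest probe set, by mean over the arrays. The log2(intensity + 16) values went into limma 3.58.1 under R 4.3.3 (lmFit, then eBayes with a trend of spread on level). Group was the sole term, with 2 residual degrees of freedom and a median of 6.66 from the prior. Tests were two-sided, with Benjamini-Hochberg adjustment over all genes. Every probe set was also tested in a fit over 45037 probe sets. The fit was tested on simulated data with known changes. An exact permutation test of 2 arrays against 2 cannot go below 0.333 and was not used. Background is the highest of 27 Bacillus control probe sets. Figures were drawn with matplotlib 3.10.9.

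The chemokines, gene lists and tests were chosen with earlier results of these data known. Named genes were all 7 chemokines, other ligands that passed or had a mean above background, the measured receptors, up to 4 called genes of each further list, Egr1, Nr4a1, Dusp2 and Ifng, and the 4 nearest profiles of each called chemokine. Klf13, Csf1r, Lyz2, Srgn, the measured NK-cell markers (Klra8 and Ncr1 among them) and the genes shown only in the plot of array patterns were chosen after their values were seen. Alternatives covered normalization, pseudocounts, dim probe sets, the spread, probe set choice, a replicate block and leaving out each array.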

Additional observations from a re-analysis of the deposited data

How the results depend on the processing

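The number of chemokine genes called, 3 of 7, was 0 without a trend of the spread (4 at an unadjusted p under 0.05, limma), 1 with a robust spread, and 0 to 2 when 1 array was left out. Of the 8 probe sets, 1 passed, against 3 after quantile normalization, 3 at a threshold of 0.1, 0 without a trend (4 at an unadjusted p under 0.05, limma) and 0 whichever array was left out (3 to 5). The 2 other ligands called became 1 without a trend and 0 to 2 with an array left out (0 without Ly49- replicate 2, with 3 at an unadjusted p under 0.05). All genes called, 723, became 370 without a trend, 1252 at a threshold of 0.1 and 100 to 281 with an array left out. The cause was not tested, but fits without an array had fewer samples, and with a lone array in a group its spread was assumed to be that of the other group.

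The replicate block used the numbers in the titles, which the labels do not tie to a shared animal or day. The deviations of same-numbered arrays had a correlation of 0.25 across all genes and 0.33 across the 12697 genes above background. With the block, 5 chemokine genes, 5 probe sets and 1533 genes in all passed, with Ccl4 (limma adjusted p = 2.44e-06) and Cxcl10 (0.00559) added to the 3 genes.

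With 1 array left out, the fitted log2 value of Ccl1, in the gene and the probe set fit alike, ran from -0.20 (without Ly49+ replicate 2) to 0.0104 (without Ly49+ replicate 1), and Ccl9 turned to 0.00197 with the mean of its probe sets, both below background, so these signs carry no direction. The pseudocounts of 1 and 64, the filters on dim probe sets and leaving out _x_at and _s_at probe sets changed no call of those of the 7 genes they kept, and quantile normalization changed none in the gene fit. A filter on the Bacillus background was added after seeing the data.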
